A study of Homo sapiens with 8 samples.

Results

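The genes described here encode subunits of the Polycomb repressive complexes, with the paired catalytic subunits EZH1 and EZH2 in the centre. All probes of the mRNA arrays whose RefSeq accession belongs to EZH1, EZH2, SUZ12, EED, RBBP4, RBBP7, JARID2, PHF19, BMI1 or RNF2 were taken, whatever their values. The genes themselves were chosen with earlier results of these data known, and EZH1 was picked by the study on these arrays. Of these 10 genes, 9 had a probe, and EED was the exception. Together they had 15 probes of the 42405 that were not controls, and all 15 were well above background on 8 of 8 arrays and were tested. The array files pair probes with accessions and give no positions in the genome.

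The mRNA of KYSE850, a human line derived from squamous carcinoma of the esophagus, was measured on 8 one-colour arrays. Cells transfected with a control siRNA gave 4 arrays, and cells transfected with siRNA against KHSRP gave 4. KHSRP is an RNA-binding protein with roles in mRNA decay and in the maturation of some miRNAs. Both groups are this 1 line with no other alteration named in the labels, which leave unstated the KHSRP siRNA used for each array and whether the arrays of a group came from separate cultures, so that p-values measure the spread between these samples only.

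Polycomb repressive complex 2 (PRC2) places methyl groups on a lysine of histone H3 (the mark H3K27me3), which marks silenced genes. Either EZH2 or EZH1 carries its catalytic activity, together with SUZ12, EED and RBBP4 or RBBP7, and accessory subunits such as JARID2, PHF19 and MTF2 help to bring it to chromatin. EZH2 is best known from dividing cells and is often abundant in tumors, whereas EZH1 is also found in resting cells. Polycomb repressive complex 1 (PRC1), which contains RNF2 and a partner such as BMI1, places ubiquitin on histone H2A.

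The promoter sequences below are printed because the mRNAs of EZH2 and PHF19 fell together in KHSRP-knockdown cells, whereas those of SUZ12 and EZH1 were not called, and each of these genes have a window that holds the letters of an E2F site, a motif common in the promoters of cell cycle genes. The letters searched were TTTCCCGC, TTTCGCGC, TTTGCCGC and TTTGGCGC on both strands. Windows ran from 250 bases before to 30 bases after an annotated start, in the RefSeq annotation of GRCh38.p14. Each of the printed windows held 1 match, marked by capitals.
EZH2, chr7:148884262-148884541, minus strand, match at base 2 after the start: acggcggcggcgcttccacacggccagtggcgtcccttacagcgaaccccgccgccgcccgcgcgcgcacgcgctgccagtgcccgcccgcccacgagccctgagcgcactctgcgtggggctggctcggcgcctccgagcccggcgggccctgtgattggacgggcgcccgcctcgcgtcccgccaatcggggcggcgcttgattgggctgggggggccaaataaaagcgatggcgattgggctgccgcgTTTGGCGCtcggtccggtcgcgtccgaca
PHF19, chr9:120877159-120877438, minus strand, match at base -152: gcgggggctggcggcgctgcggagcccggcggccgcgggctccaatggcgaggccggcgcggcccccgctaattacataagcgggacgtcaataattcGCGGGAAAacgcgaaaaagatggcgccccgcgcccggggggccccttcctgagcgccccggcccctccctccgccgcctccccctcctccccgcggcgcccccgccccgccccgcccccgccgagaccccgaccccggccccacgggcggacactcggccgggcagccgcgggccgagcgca
SUZ12, chr17:31936757-31937036, plus strand, match at base -189: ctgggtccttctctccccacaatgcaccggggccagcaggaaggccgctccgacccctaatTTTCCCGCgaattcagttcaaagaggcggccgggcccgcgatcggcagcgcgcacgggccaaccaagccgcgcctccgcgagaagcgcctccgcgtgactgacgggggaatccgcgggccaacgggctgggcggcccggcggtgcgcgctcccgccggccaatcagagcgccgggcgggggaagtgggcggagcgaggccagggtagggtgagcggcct
EZH1, chr17:42745011-42745290, minus strand, match at base -115: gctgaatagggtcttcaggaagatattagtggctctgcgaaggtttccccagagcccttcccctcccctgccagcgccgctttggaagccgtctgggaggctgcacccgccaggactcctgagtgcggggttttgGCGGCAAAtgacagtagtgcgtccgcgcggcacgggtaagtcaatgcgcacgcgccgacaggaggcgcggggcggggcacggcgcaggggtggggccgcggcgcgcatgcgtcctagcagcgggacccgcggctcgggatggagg

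Of the 10 genes, all of which matched by symbol, 4 had such a window, and of their 16 windows 4 held the letters. EZH2 and PHF19 each had another window without them, and both JARID2 windows lacked them. Among all windows of this length, 1103 of 35116 (3.14%) held the letters, and so did at least 1 window of 1043 of 27305 genes (3.82%). That background was not matched to these genes in base composition or in windows per gene. The 16 windows held from 51.8% to 91.4% G and C. Whether the 10 genes hold more matches than like promoters was not tested. A match describes letters in the sequence and is not evidence that a factor binds there.

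EZH1 was among the genes that the study predicted to be targets of miR-130b, and it was picked on these arrays. The mature sequence, from RefSeq at chr22:21653354-21653375 on the plus strand of GRCh38.p14, is shown as the study's link from KHSRP to EZH1, with the seed (bases 2 to 8) in capitals.
hsa-miR-130b-3p: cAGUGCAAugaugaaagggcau
The miRNA itself was not measured on these arrays. The paper reports that it fell in KHSRP-knockdown cells, on separate miRNA arrays and by quantitative PCR.

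Levels below are log2 signals relative to the 75th percentile of the array, so that a probe at that percentile has a level of 0. They can be compared between arrays for 1 probe, but not between probes. The silenced gene was checked first. The log2 level of KHSRP (A_23_P16157) was 6.03, 5.81, 6.39 and 6.08 on control arrays 1 to 4 and 2.52, 2.58, 2.88 and 2.85 on KHSRP siRNA arrays 1 to 4, which left 9.66% of the control level. At a second and dimmer KHSRP probe, A_24_P134235, the 4 controls exceeded background and 0 of the 4 knockdown arrays did. With knockdown values below the dimmest probe above background on the array raised to that level, the signal was 5.83-fold lower. The size of this fall is uncertain, since with normexp background correction the log2 fold change was -0.54. Across the arrays, 45.1% to 49.4% of probes were well above background and 0 spots were saturated. Arrays 1 and 2 of both groups shared a slide, as did arrays 3 and 4. Within each group the arrays also differed in a way the groups do not explain. Control arrays 1 and 3 deviated from their group mean together with KHSRP siRNA arrays 1 and 4, and control arrays 2 and 4 together with KHSRP siRNA arrays 2 and 3. The deposited summary table holds the values of KHSRP siRNA arrays 3 and 4 under each other's number. Both carry the same group label, and the arrays are numbered here as in the scanner files. Numbered as in the summary table, every pair of arrays with the same number deviated together, with correlations of 0.43 to 0.84, so the fit with that number as a block (the summary-table block) is given for each Polycomb probe whose call it changes, and for other named genes beside their value or by a count over their list. It called 30.1% of all tested probes, against 5.54% without it. No gene named below as called with that block, but not without it, was called with the scanner-file number (the label number) as a block.

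Of the 15 Polycomb probes, 3 were called (limma, Benjamini-Hochberg adjusted p under 0.05), 1 higher and 2 lower in KHSRP-knockdown cells. Among all 18761 tested probes, 1039 were called, or 5.54%. The called probes were those of EZH2, the brighter probe of PHF19, and JARID2. EZH2 fell to 41.2% and PHF19 to 44.7% of the control level, and JARID2 rose by 1.39-fold. With the summary-table number as a block 5 were called, EZH1 and the dimmer PHF19 probe in addition. That block called 30.1% of all tested probes, so the count of 5 among 15 is close to that share. With the label number as a block 0 were called. The 12 uncalled probes had log2 fold changes from -0.50 to 0.60. For 3 of the 15 probes, the same 3, the groups did not overlap, and over all tested probes this held for 14.8%. The median log2 fold change was -0.08 over the 15 probes and 0.012 over all tested probes.

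**Figure D1:**
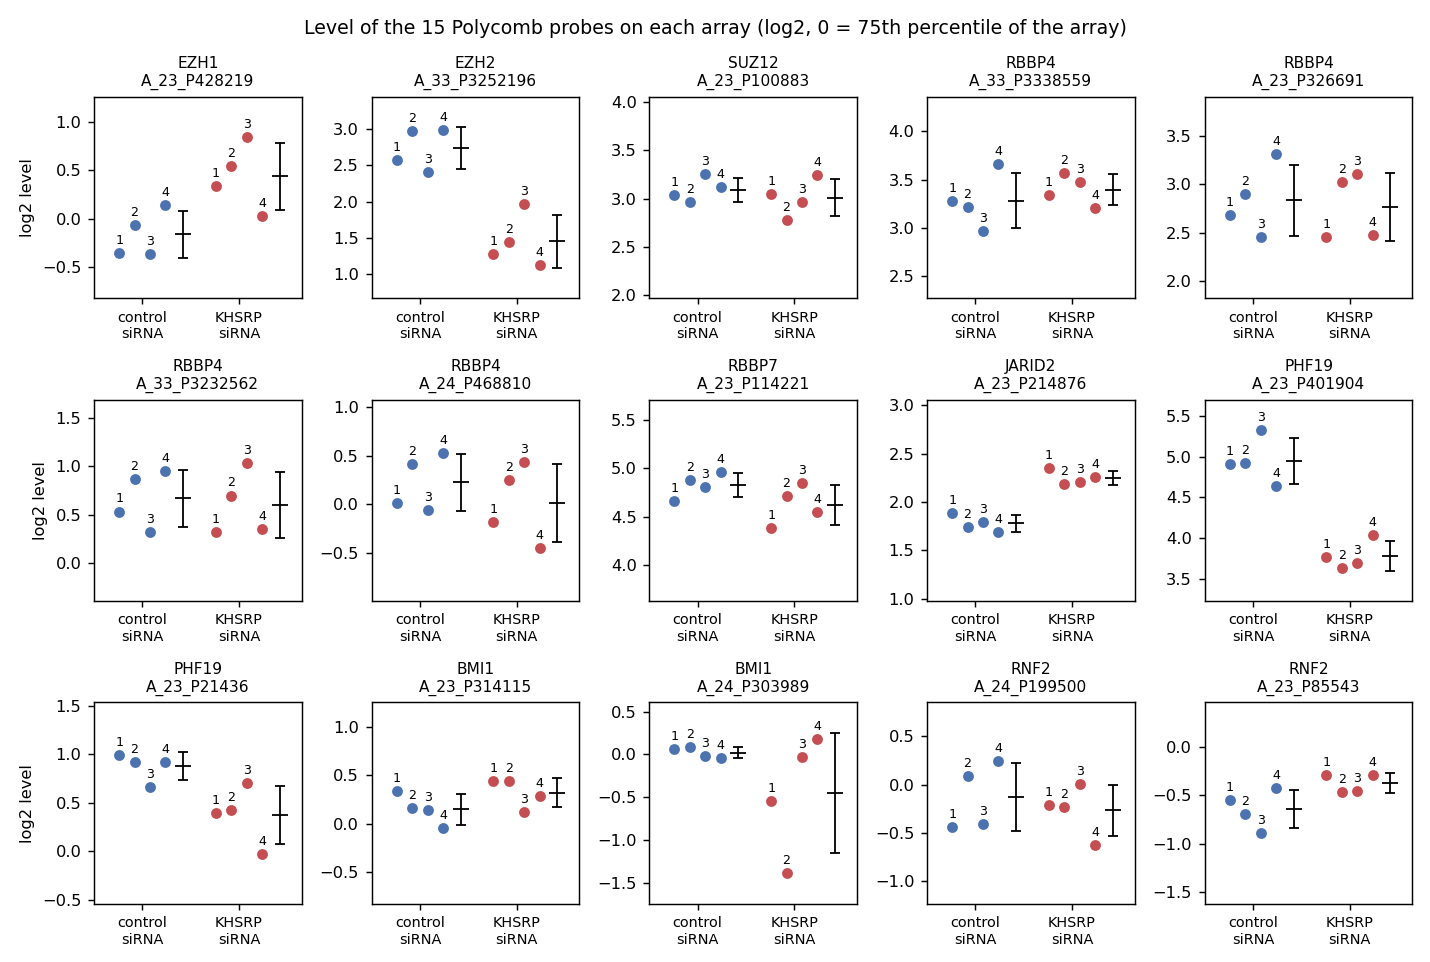
Log2 level (vertical axis, 0 is the 75th percentile of the array) of each of the 15 probes on every array, with the replicate number beside each point (blue, control siRNA; red, KHSRP siRNA), and the mean and SD of each group as black bars (n = 4 per group). EZH2, JARID2 and the PHF19 probe A_23_P401904 are the panels in which the groups do not overlap.

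EZH2 is the catalytic subunit of PRC2. Its log2 level (A_33_P3252196) was 2.57, 2.97, 2.40 and 2.99 on control arrays 1 to 4 and 1.28, 1.44, 1.97 and 1.13 on KHSRP siRNA arrays 1 to 4. Every KHSRP siRNA array was lower than the lowest control, and array 3 was the highest of the KHSRP siRNA group. The means were 2.73 ± 0.29 and 1.45 ± 0.36 (SD, n = 4 each). The log2 fold change was -1.28 (SE 0.22, 95% interval -1.77 to -0.79), a 2.43-fold fall to 41.2% of the control level, with an adjusted p of 0.0127 from limma. The exact permutation p, two-sided, was 0.0286, the smallest that 4 arrays against 4 allow. The fall was -1.41 on the first slide and -1.15 on the second. EZH2 was called in 8 of 8 fits that left out an array.

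EZH1 is the catalytic subunit that can take the place of EZH2. Its log2 level (A_23_P428219) was -0.35, -0.06, -0.36 and 0.14 on control arrays 1 to 4 and 0.34, 0.55, 0.85 and 0.03 on KHSRP siRNA arrays 1 to 4. The groups overlapped, since KHSRP siRNA array 4 lay below control array 4, and the other KHSRP siRNA arrays lay above all controls. The means were -0.16 ± 0.24 and 0.44 ± 0.35 (SD, n = 4 each). The log2 fold change was 0.60 (SE 0.20, 95% interval 0.15 to 1.05), or 1.52-fold, and it was not called (limma adjusted p = 0.131, exact permutation p = 0.0571). With the summary-table number as a block it was called (adjusted p = 0.0056). It was called with array weights too (0.031), and it was called in 0 of 8 fits that left out an array. In 19 of 21 alternative fits EZH1 stayed uncalled. Among these were the label number as a block (adjusted p = 0.298), no filter on dim probes (0.365) and median scaling (0.331). Because the study picked EZH1 on these arrays, its value is not independent evidence of a rise. The paper also reports increased EZH1 mRNA in KHSRP-knockdown cells by quantitative PCR, a measurement not examined here.

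The changes of EZH1 and EZH2 were then compared within each array, where any shift common to both probes cancels. The log2 level of EZH1 minus that of EZH2 was -2.92, -3.03, -2.77 and -2.85 on control arrays 1 to 4 and -0.94, -0.89, -1.12 and -1.10 on KHSRP siRNA arrays 1 to 4. The KHSRP siRNA arrays were all above the controls, and the arrays of a group lay closer together in this difference than in either gene alone. For both genes, control arrays 2 and 4 and KHSRP siRNA arrays 2 and 3 were the highest of their groups. These are the arrays that deviated together over all probes, and the difference removes what both genes share. Whether the genes are linked was not tested. The difference moved from -2.89 ± 0.11 to -1.01 ± 0.12 (SD, n = 4 each), by 1.88 (SE 0.081), a 3.68-fold shift towards EZH1. The shift was 2.06 on the first slide and 1.70 on the second. Because the pair was chosen with earlier results known and includes EZH1, picked on these arrays, the shift is a description with no test, and the size of the offset between them also depends on how brightly each probe hybridizes.

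**Figure D2:**
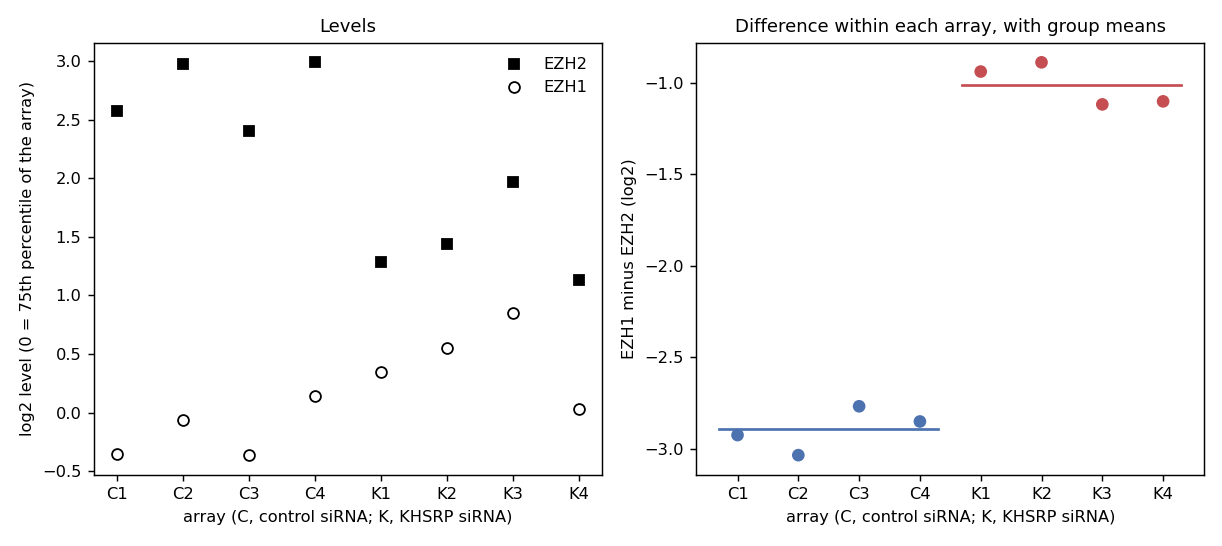
Left, log2 level of the EZH2 probe (squares) and the EZH1 probe (circles) on each array, where 0 is the 75th percentile of the array and heights are not comparable between the probes. Right, EZH1 minus EZH2 within each array (log2) with group means as lines (blue, control siRNA; red, KHSRP siRNA); the control arrays lie between -3.03 and -2.77 and the KHSRP siRNA arrays between -1.12 and -0.89.

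The other core subunits of PRC2 were not called. SUZ12, the scaffold on which the catalytic subunit is held, had log2 levels (A_23_P100883) of 3.04, 2.96, 3.25 and 3.11 on control arrays 1 to 4. On KHSRP siRNA arrays 1 to 4 they were 3.05, 2.78, 2.97 and 3.25. KHSRP siRNA array 2 lay below the controls and the others among them, and the groups differed by -0.08 on the log2 scale (SE 0.13, adjusted p = 0.828). Its 95% interval of -0.38 to 0.22 does not reach the fall of EZH2.

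RBBP7, a histone-binding subunit shared with other chromatin complexes, had the log2 levels (A_23_P114221) 4.67, 4.88, 4.81 and 4.96 on control arrays 1 to 4. On KHSRP siRNA arrays 1 to 4 they were 4.38, 4.71, 4.85 and 4.54, with arrays 1 and 4 below all controls and arrays 2 and 3 among them. The log2 fold change was -0.21 (SE 0.13, 95% interval -0.52 to 0.10, adjusted p = 0.466).

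RBBP4, the close relative of RBBP7, was measured by 4 probes. At the brightest (A_33_P3338559) the log2 level was 3.28, 3.22, 2.97 and 3.67 on control arrays 1 to 4 and 3.34, 3.57, 3.47 and 3.21 on KHSRP siRNA arrays 1 to 4. The groups overlapped at this and the 3 other probes. The log2 fold changes were 0.11 at A_33_P3338559, -0.07 at A_23_P326691, -0.07 at A_33_P3232562 and -0.21 at A_24_P468810, with SE from 0.16 to 0.23 and adjusted p from 0.704 to 0.925. The sign at A_23_P326691 and A_33_P3232562 was not stable, and turned positive with array weights and without control array 4 or KHSRP siRNA array 1 or 4. At A_23_P326691, A_33_P3232562 and A_24_P468810 alike, control arrays 2 and 4 and KHSRP siRNA arrays 2 and 3 were the highest of their groups, which are the arrays that deviated together over all probes.

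JARID2, an accessory subunit that helps to bring PRC2 to its targets in embryonic stem cells, was the called probe that rose. Its log2 level (A_23_P214876) was 1.88, 1.74, 1.80 and 1.69 on control arrays 1 to 4 and 2.35, 2.19, 2.20 and 2.26 on KHSRP siRNA arrays 1 to 4. Every KHSRP siRNA array was higher than the highest control, with little spread within either group. The means were 1.78 ± 0.08 and 2.25 ± 0.07 (SD, n = 4 each), and the log2 fold change was 0.47 (SE 0.10, 95% interval 0.24 to 0.70, adjusted p = 0.0328, exact permutation p = 0.0286). The rise was 0.46 on the first slide and 0.49 on the second. The call was near the threshold. It was lost in 8 of 8 fits that left out an array (adjusted p from 0.0647 to 0.100) and with each array scaled to its median (0.300), although the log2 fold change was 0.40 at its lowest.

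PHF19 is a Polycomb-like protein that reads a methyl mark of active genes, H3K36me3, and helps PRC2 to spread. The log2 level of its brighter probe (A_23_P401904) was 4.91, 4.92, 5.33 and 4.64 on control arrays 1 to 4 and 3.77, 3.63, 3.69 and 4.04 on KHSRP siRNA arrays 1 to 4, so that the groups did not overlap. The means were 4.95 ± 0.28 and 3.79 ± 0.18 (SD, n = 4 each). The log2 fold change was -1.16 (SE 0.17, 95% interval -1.55 to -0.78), a 2.24-fold fall to 44.7% of the control level, with a limma adjusted p of 0.00694, and the probe was called in 8 of 8 fits that left out an array.

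The dimmer PHF19 probe (A_23_P21436) is listed under another RefSeq transcript than the brighter one. Its log2 level was 0.998, 0.93, 0.67 and 0.92 on control arrays 1 to 4 and 0.39, 0.42, 0.70 and -0.03 on KHSRP siRNA arrays 1 to 4. Only KHSRP siRNA array 3 overlapped the controls, above control array 3. The log2 fold change of -0.50 (SE 0.17, 95% interval -0.88 to -0.12) was not called (adjusted p = 0.131), and it was with the summary-table number as a block (0.0147). The difference of -0.66 between the changes of the PHF19 probes had an exact permutation p of 0.114, and none of 9 such pairs of probes of 1 gene passed after adjustment (adjusted p from 0.294 to 0.943).

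BMI1, a partner of RNF2 in PRC1 that represses the CDKN2A locus, had 2 probes, whose changes differed by 0.64 (exact permutation p = 0.229, adjusted p = 0.294). At A_23_P314115 the log2 level was 0.34, 0.17, 0.14 and -0.05 on control arrays 1 to 4 and 0.44, 0.44, 0.12 and 0.29 on KHSRP siRNA arrays 1 to 4, with a change of 0.17 between groups (log2, SE 0.13, adjusted p = 0.538). At A_24_P303989 it was 0.06, 0.09, -0.02 and -0.04 on control arrays and -0.55, -1.39, -0.03 and 0.18 on KHSRP siRNA arrays. KHSRP siRNA arrays 1 and 2, which shared a slide, were low at this probe and arrays 3 and 4 lay near the controls. Its log2 fold change was -0.47 (SE 0.31, 95% interval -1.17 to 0.24, adjusted p = 0.478), with -1.04 on the first slide and 0.11 on the second. Neither probe was called.

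RNF2 is the ubiquitin ligase of PRC1. At A_24_P199500 its log2 level was -0.44, 0.09, -0.41 and 0.25 on control arrays 1 to 4 and -0.21, -0.23, 0.01 and -0.63 on KHSRP siRNA arrays 1 to 4. At A_23_P85543 it was -0.55, -0.69, -0.89 and -0.43 on control arrays and -0.29, -0.47, -0.45 and -0.29 on KHSRP siRNA arrays. The groups overlapped at both. The log2 fold changes were -0.14 (SE 0.20, adjusted p = 0.804) and 0.26 (SE 0.13, 95% interval -0.03 to 0.56, adjusted p = 0.316), and the first turned to 0.047 with array weights.

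**Figure D3:**
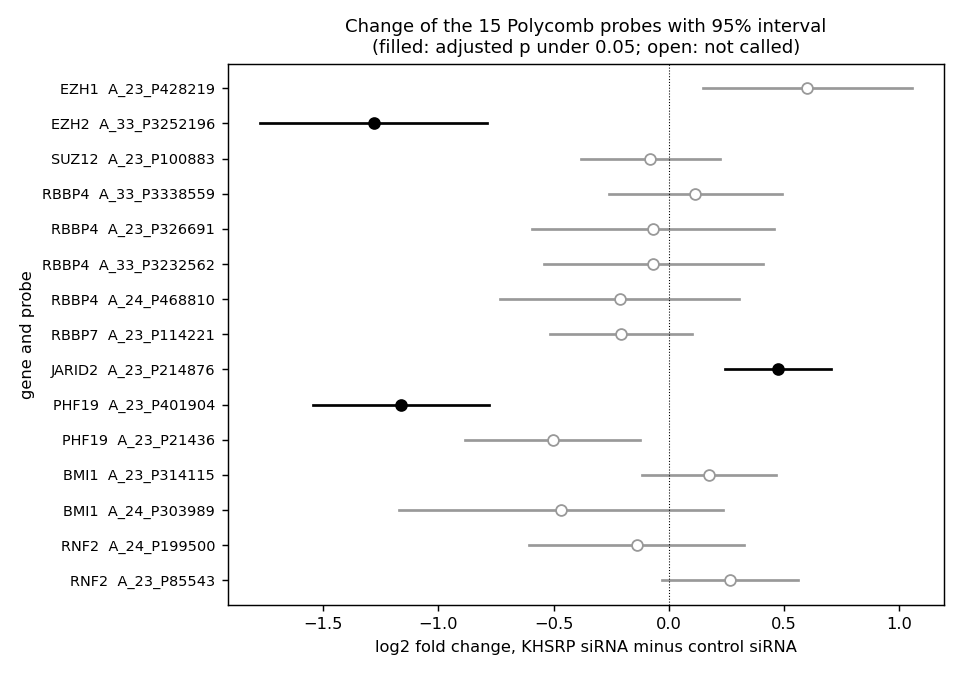
Log2 fold change (horizontal axis, KHSRP siRNA minus control siRNA) of the 15 probes with its 95% interval from limma (filled, adjusted p under 0.05; open, not called; n = 4 per group). EZH2 at -1.28, the PHF19 probe A_23_P401904 at -1.16 and JARID2 at 0.47 are filled.

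Other subunits of both complexes were read from lists, each gene by its brightest tested probe. Over all 12125 tested genes, 6.19% were called and 4.06% were called as lower, and the median log2 fold change was 0.0058. Of the 9 measured subunits above, 3 were called at the gene level too, with a median of -0.08.

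Among 7 further accessory subunits of PRC2, 5 were tested and 1 was called, lower. This was MTF2, another Polycomb-like protein related to PHF19 and known for binding unmethylated CpG-rich DNA. Its log2 level (A_23_P46333) was 1.25, 0.82, 0.91 and 1.31 on control arrays 1 to 4 and -0.03, 0.50, 0.50 and 0.12 on KHSRP siRNA arrays 1 to 4. The groups did not overlap, and the change was -0.80 on the log2 scale (SE 0.18, adjusted p = 0.0365). The call was lost in 7 of 8 fits that left out an array, all except that without KHSRP siRNA array 3 (adjusted p from 0.0482 to 0.114). The median over the 5 genes was -0.29, with the third Polycomb-like gene, PHF1, at -0.29 (adjusted p = 0.309, and 0.0465 with the summary-table block). With the summary-table number as a block 3 were called, all lower, against 30.1% of all tested probes called in either direction.

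Of 26 further PRC1 genes, 23 were tested, 12 were higher and 11 lower, and the median was 0.04. The single called gene was CBX8, a chromobox protein that reads the mark left by PRC2. Its log2 level (A_23_P55421) was -1.01, -0.90, -1.03 and -0.98 on control arrays 1 to 4 and -2.05, -1.80, -2.32 and -2.81 on KHSRP siRNA arrays 1 to 4. CBX8 changed by -1.26 on the log2 scale (SE 0.20, adjusted p = 0.0107). The probe was dim and passed the filter through the control group alone, since 3 of 4 KHSRP siRNA arrays were well above background. Its adjusted p is therefore not independent of the filter, and the size of the change is uncertain. With normexp background correction the change was -0.41. Of other chromobox genes, CBX7 was at 0.56 (adjusted p = 0.0742, and 0.00864 with the summary-table block) and CBX2 at -0.10 (0.793), and RING1, the paralog of RNF2, was at -0.50 (0.086, and 0.00656 with that block). CBX7 and RING1 stayed uncalled with the label number as a block (limma adjusted p = 0.227 and 0.245). With the summary-table number as a block, 7 of the 23 genes were called, 3 of them higher, against 30.1% of all tested probes.

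Of 8 genes for enzymes that oppose Polycomb marks or for cofactors of such enzymes, 5 were tested and 0 were called. KDM6B, a demethylase of the PRC2 mark, was not tested. Of the tested genes, 1 had an unadjusted p under 0.05 (limma), and 2 were called with the summary-table number as a block. The smallest p was that of ASXL2, a cofactor of the H2A deubiquitinase BAP1, at -0.37 on the log2 scale (adjusted p = 0.153, and 0.0146 with that block). BAP1 was at 0.08 (0.817), and the demethylase KDM6A was at 0.24 (0.389, and 0.0375 with the block). Of 24 other lysine methyltransferase genes, 22 were tested and 0 were called, with 5 at an unadjusted p under 0.05 and 8 called with that block. The block counts of both lists stand beside 30.1% of all tested probes. The median was 0.13. DOT1L, a methyltransferase that acts on the core of histone H3, had the smallest p, with 0.49 at A_23_P101737 (adjusted p = 0.0656, 0.0404 with slide as a block and 0.00925 with the summary-table block) and -0.07 at its other probe, A_23_P408768 (0.842).

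Genes that others have described as repressed by EZH2 were listed from general knowledge and were not chosen for this cell line. Of 18 such genes 14 were tested, 9 higher and 5 lower, with a median of 0.12, and 3 were called. With the summary-table number as a block 7 were called, against 30.1% of all tested probes. CDKN1C, an inhibitor of cyclin-dependent kinases, had log2 levels (A_23_P428129) of 2.33, 2.59, 2.21 and 3.17 on control arrays 1 to 4 and 3.52, 3.83, 4.22 and 3.62 on KHSRP siRNA arrays 1 to 4. It rose by 1.22 (SE 0.24, adjusted p = 0.0232), and the call was lost in 5 of 8 fits that left out an array (adjusted p up to 0.0788), those without control array 1, 2 or 3 or KHSRP siRNA array 2 or 3. BCL2L11, which encodes the pro-apoptotic protein BIM, rose by 0.89 at A_24_P122921 (SE 0.12, adjusted p = 0.0047) and by 0.85 at A_33_P3398526 (adjusted p = 0.0403), where the call was lost in 7 of 8 fits that left out an array, all except that without KHSRP siRNA array 1 (adjusted p up to 0.118), and was at 0.43 at A_33_P3251932 (0.723). TIMP2, an inhibitor of matrix metalloproteinases, went the other way. Its log2 level (A_33_P3382177) was 4.52, 5.06, 4.35 and 4.999 on control arrays 1 to 4 and 2.46, 2.83, 3.20 and 2.22 on KHSRP siRNA arrays 1 to 4, a fall of -2.05 (SE 0.25, adjusted p = 0.00353) to 24.1% of the control level. CDKN2A was at 0.05 (adjusted p = 0.978) and VASH1 at 0.03 (0.98). CDH1, the epithelial cadherin, was at 0.55 (0.135) and TIMP3 at 1.21 (0.275), and both were called with the summary-table number as a block (0.012 and 0.0015). Like EZH1, TIMP3 was picked by the study on these arrays, so its value is not independent evidence of a rise. It is counted among the 9 higher genes and the 7 called with that block.

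The HOX genes are the classical targets of Polycomb. Of 39, 38 had a probe, 22 were well above background on 8 of 8 arrays and were tested, and 7 were above background on no array. Of the tested genes, 9 were higher and 13 lower, with a median of -0.13. HOXC9 was the called gene, with a log2 fold change of 0.51 (A_23_P25150, SE 0.11, adjusted p = 0.0329) that lost its call in 8 of 8 fits that left out an array. The lowest value was that of HOXB6, at -1.01 (adjusted p = 0.207, and 0.0033 with the summary-table block). With the summary-table number as a block 9 HOX genes were called, 3 of them higher, against 30.1% of all tested probes.

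**Figure D4:**
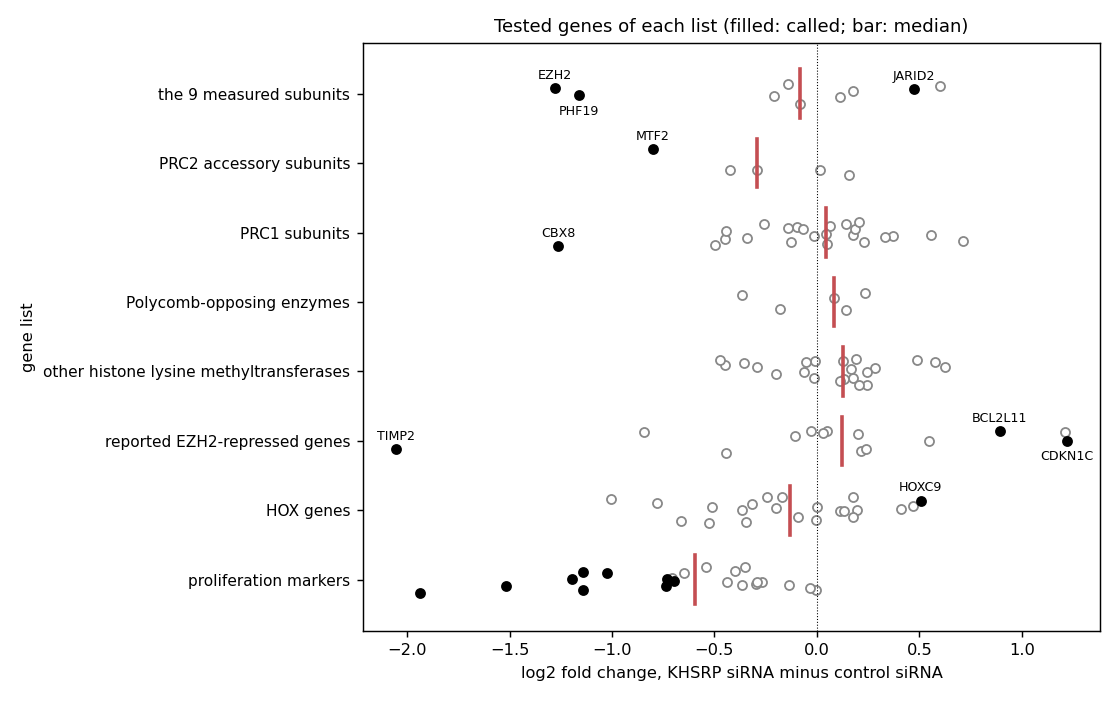
Log2 fold change (horizontal axis, KHSRP siRNA minus control siRNA) of each tested gene by its brightest probe, grouped by list (vertical axis, points spread for legibility); filled points were called (limma adjusted p under 0.05) and red bars mark medians. The proliferation markers lie below 0 with a median of -0.59, whereas the medians of the other lists lie between -0.29 and 0.13.

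EZH2 is known as a gene of dividing cells, and markers of proliferation moved with it on these arrays. Of 22 such markers, all tested, 22 had log2 fold changes below 0, 9 were called lower and 0 higher, against 4.06% of all genes called lower, and for 14 the groups did not overlap, against 14.8% of all tested probes. With the summary-table number as a block 19 were called, all lower, against 30.1% of all tested probes called in either direction. Their summed signal, relative to a probe at the 75th percentile, ranged from 535 to 562 on control arrays and from 357 to 412 on KHSRP siRNA arrays. The largest changes among those called were those of CCNA2, the cyclin of S phase (-1.94, SE 0.16, adjusted p = 6.68e-04), FOXM1, a transcription factor for genes of mitosis (-1.52, SE 0.14, adjusted p = 0.00102), and CCNE1, the cyclin of entry into S phase (-1.19, SE 0.099, adjusted p = 7.18e-04). The licensing gene MCM2 and the E2F2 gene were close to 0 (-0.01 and -0.03, adjusted p 0.989 and 0.966). The part of the proliferation markers in the change of EZH2, PHF19 or CBX8 was not tested. In bulk RNA, fewer cells that express a gene and less of its mRNA per cell cannot be told apart.

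Over the 8 arrays, and with no test, the gene whose level followed EZH2 most closely was CCDC146 (Pearson r = 0.996), then PSRC1 (0.993), TIMP2 (0.992), PPP3CB (0.992) and AGTPBP1 (0.991), among 12124 other genes. Each of these was lower in KHSRP-knockdown cells (log2 fold change from -2.05 to -0.90, limma adjusted p from 0.00353 to 0.0193). EZH2 followed FOXM1 with r = 0.95, CCNA2 with 0.92 and MKI67 with 0.91, and JARID2 with -0.95. EZH1 was followed most closely by TBC1D8 (0.988), MMP17 (0.987), ATG9A (0.986), FAM222B (0.985) and AQP7P1 (0.984), none of them called (adjusted p from 0.0909 to 0.200). Its r was -0.88 with PHF19 and -0.44 with EZH2. These values share the arrays, the group difference and the deviations common to sets of arrays, so they describe likeness and no more.

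The cell type on the label was checked against its markers. All 10 markers of squamous epithelium listed, among them KRT5, KRT14 and TP63, were well above background on 8 of 8 arrays. Of these, 0 were called and 0 had an unadjusted p under 0.05 (limma). With the summary-table number as a block 2 were called, against 30.1% of all tested probes. DSC3, a desmosomal cadherin, had the smallest p of these (0.48, adjusted p = 0.647). The spread within groups was large. The log2 level of KRT5 was 5.84, 4.30, 5.84 and 3.11 on control arrays 1 to 4. On KHSRP siRNA arrays 1 to 4 it was 5.92, 4.46, 2.92 and 5.98. The higher arrays of each group were those that deviated together over all probes. The 95% interval of the KRT5 change was -1.84 to 1.94, so the lack of a call does not show steady levels. Of 6 fibroblast markers, 5 were above background on no array and COL1A1 was at 0.07 (adjusted p = 0.954). Of 6 leukocyte markers, CD68 and CD14 were tested (0.29 and -0.06, adjusted p = 0.878 and 0.931), CD68 being called with the summary-table block (0.0184), and the defining genes PTPRC and CD3E were too dim for testing. The summed signal of the squamous markers ranged from 177 to 576 on control arrays and from 204 to 655 on KHSRP siRNA arrays, so that the groups overlapped.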

How the data were processed

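Total RNA of 8 KYSE850 samples was labelled with Cy3 and hybridized to one-colour Agilent arrays, 4 per group. All samples were used. The authors scanned the arrays with Agilent Feature Extraction (11.5.1.1 per the file headers, 12.6 per the submitters' processing notes), so that the deposited scanner values are linear intensity, background-subtracted within the array and not scaled between arrays. The authors also deposited a table of log2 values made, according to the methods, with GeneSpring. Differences between its columns followed the scanner values (r = 1.00), with KHSRP siRNA 3 and 4 exchanged; it was used as an alternative. Names of the RNA kit differ between labels and methods.

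Control and outlier spots were left out. Signals were log2-transformed, averaged per probe and set relative to the 75th percentile of the array. Probes well above background (at least 0.5 of spots) on all arrays of a group were tested, 18761 in all. Accessions gave symbols for 27241 of 42405 probes (64.2%) with RefSeq of GRCh38.p14, and the brightest tested probe stood for a gene. A missing value at 1 tested probe, none of those named, was left missing. The number of arrays limits the precision.

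The group comparison used lmFit and eBayes of limma 3.58.1 (R 4.3.3, two-sided, no block), p-values were adjusted over all tested probes by the Benjamini-Hochberg method, and single values were compared with an exact permutation test in Python 3.11.15. An interval is the 95% interval of that fit. In data simulated for this comparison from 18760 probes, the fit called 50% of 2-fold and 85% of 4-fold changes, with 6 false calls. The simulated noise was independent between probes and arrays and lacked the deviations that sets of arrays share here. These rates therefore do not give the error rate in the real data. The members and lists were chosen with earlier results of these data known. Named were all probes of the members and of KHSRP, in each list the called genes (up to 5, otherwise the 3 with the largest change per direction, or the gene with the smallest p where none was called), and the 5 genes most like EZH1 and EZH2. Any other gene was named after its values were seen. A few genes of the lists are counted but not reported here by name.

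Of the pairs of arrays with the same label number, 1 and 2 deviated together (r = 0.52 and 0.43) and 3 and 4 did not (-0.67 and -0.64). With the numbers of the deposited table all 4 pairs did (r = 0.52, 0.43, 0.83 and 0.84). Alternatives covered scaling, background correction, the deposited table, the filter on dim probes, blocks, array weights, an intensity trend, the methods' t-test and leaving out each array. The normexp alternative used the median spot brightness.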

Additional observations from a re-analysis of the deposited data

Results flagged for a closer look

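In 62 groups of 4 arrays examined, over the named probes, 3 held a value far from the rest, and chance gives about 1 in 20 groups. The dimmer KHSRP probe A_24_P134235 was low on control array 2, at -1.86 against -1.10 for the nearest control. The size of that probe's fall is uncertain, since it was not well above background on the KHSRP siRNA arrays. ASXL2 (A_23_P210300) was high on control array 3, at 1.78 against 1.51, and without that array its log2 fold change was -0.29 (adjusted p = 0.278). DOT1L (A_23_P101737) was high on KHSRP siRNA array 1, at 0.217 against -0.04, and without that array its log2 fold change was 0.42 (adjusted p = 0.153). None of the 15 Polycomb probes held such a value.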

How the results depend on the processing

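PHF19 (A_23_P401904) kept its call in 20 of 21 alternatives (log2 fold change -1.27 to -1.04) and EZH2 in 19 of 21 (-1.45 to -1.13). Calls were lost with the label number as a replicate block by EZH2 (adjusted p = 0.106) and PHF19 (0.0788), and with no filter on dim probes by EZH2 (0.054). JARID2 lost its call in 12 of 21 (adjusted p up to 0.300) and kept its direction in all of them. For all tested probes, 1039 were called (360 higher, 679 lower). The number was 570 with median scaling (98 higher, 472 lower), 319 with no filter, 1699 with array weights (731 higher, 968 lower) and 489 to 766 with an array left out. With the label number as a block it was 156 (30 higher, 126 lower), and with the summary-table number as a block 5644 (2781 higher, 2863 lower).

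Of the 15 member probes, 1 was called with no filter, 0 with the label-number block, 5 with the summary-table block and 2 in each fit without an array. By gene, 1 was called with no filter and 0 with the label-number block. The label-number block called 0 genes in the PRC2 accessory, PRC1, EZH2-repressed and HOX lists and 5 proliferation markers. The summary-table block called 3 PRC2 accessory genes, 7 PRC1 genes, 2 genes of the opposing list and 8 methyltransferases. It also called 7 EZH2-repressed genes, 9 HOX genes and 19 proliferation markers. Over all tested probes that block called 30.1%. The call in the PRC2 accessory list was lost (0) with median scaling, normexp, no filter and the methods' t-test, and 0 to 1 genes were called with an array left out. The PRC1 call was lost (0) with probes well above background on all arrays, a filter that the CBX8 probe does not pass. Array weights called 2 genes in the PRC1 list. The HOX call was lost (0) with median scaling, normexp, no filter and any array left out, and array weights called 2. Among the methyltransferases, slide as a block called 1 and array weights 2. The cause of the other changes was not tested.

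The shift of EZH1 relative to EZH2 was 1.83 to 1.92 with an array left out, 2.06 on the first slide alone, 1.70 on the second, and 1.88 with slide as a block. With normexp it was 1.53.

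Among the member probes, uncalled values that changed sign were those of RBBP4 A_23_P326691 (0.073 with array weights, -0.20 to 0.089 with an array left out), RBBP4 A_33_P3232562 (0.038 with array weights, -0.21 to 0.027 with an array left out) and RNF2 A_24_P199500 (0.047 with array weights). Of the other genes named by rule, COL1A1 was at -0.0079 with median scaling and at -0.15 to 0.31 with an array left out, and CD68 at -0.18 with array weights and at -0.14 to 0.73 with an array left out. CDKN2A, VASH1, CBX2, CD14, MCM2 and E2F2, named with values near 0, also took both signs over the alternatives.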
